A study of Equus caballus with 21 samples.

Results

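F5, TFPI2 and PLAT are 3 horse genes of blood coagulation and fibrinolysis, and they were described here across every captured compartment of the day 12 endometrium. F5 (Entrez gene 100058503) encodes coagulation factor V, TFPI2 (100051361) encodes tissue factor pathway inhibitor 2, and PLAT (100050239) encodes tissue-type plasminogen activator. They were picked by name out of 24942 gene IDs because of their levels in these same libraries, so the levels and differences of the 3 genes are given as a description, without a test. All 3 had counts in each compartment.

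The tissue came from uterine biopsies of healthy warmblood mares that all received 1500 IU of human choriogonadotropin to induce ovulation. Pregnant mares had been inseminated with cooled semen and were sampled on day 12 of pregnancy, and cyclic mares were sampled on day 12 of a cycle without insemination. Frozen sections were dissected with a laser into luminal epithelium, glandular epithelium and stroma, and each of the 21 libraries held 1 compartment of 1 biopsy. The libraries comprised 4 pregnant and 5 cyclic luminal samples, 4 pregnant and 4 cyclic glandular samples, and 2 pregnant and 2 cyclic stromal samples. A letter names the mare. Both epithelia were captured in both states from mares B, C, M and U. Mare J gave a cyclic luminal library alone. Stroma came from pregnant mares M and U and from cyclic mares B and M. The labels name 5 mares, although the design text speaks of 6, and no age is given.

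Clotting in blood runs through a cascade of proteases that ends in thrombin, which turns fibrinogen into fibrin. Activated factor V is the cofactor with which factor X makes thrombin, and most plasma factor V comes from the liver. Tissue factor pathway inhibitor 2 is a secreted Kunitz-type inhibitor that is held in the extracellular matrix, blocks plasmin and several other serine proteases, and is abundant in the human placenta. Tissue-type plasminogen activator cuts plasminogen into plasmin, the protease that dissolves fibrin, and endothelium is its best known source.

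F5 was a transcript of the glands, whereas TFPI2 and PLAT were highest in stroma. F5 averaged 2701 ± 1150 CPM (counts scaled to library size, with library composition adjusted by the trimmed mean of M values, TMM) in pregnant and 1851 ± 497 CPM in cyclic glandular epithelium (SD, n = 4 each). TFPI2 averaged 1035 ± 581 CPM in pregnant and 635 ± 311 CPM in cyclic stroma (SD, n = 2 each). PLAT averaged 350 ± 299 CPM in pregnant and 72.8 ± 103 CPM in cyclic stroma (SD, n = 2 each). Pregnant and cyclic libraries overlapped for all 3 genes in each compartment.

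**Figure D1:**
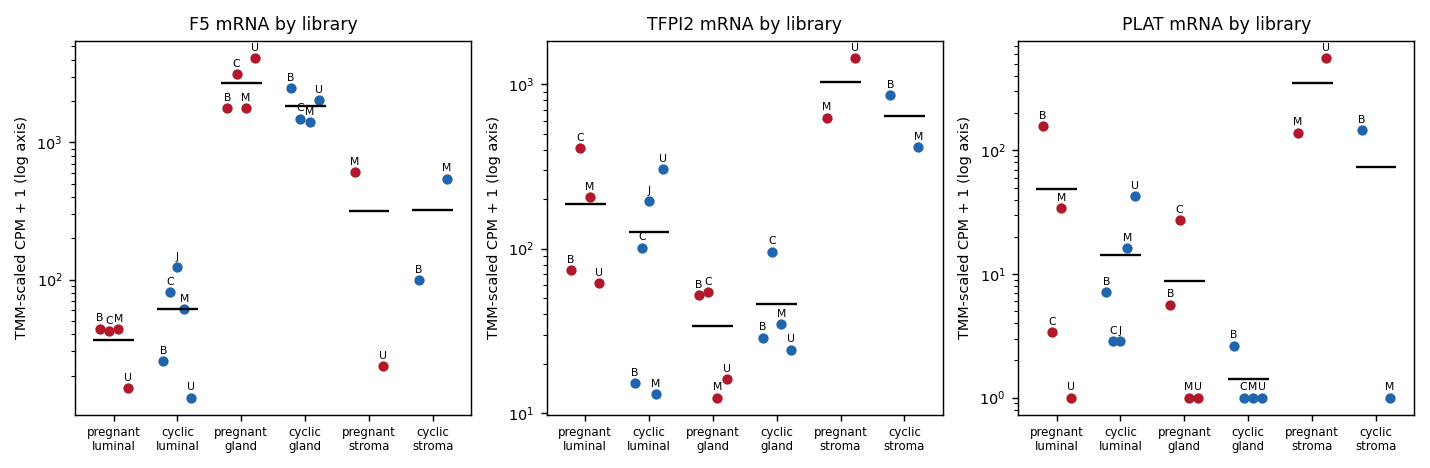
Level of F5, TFPI2 and PLAT in each of the 21 libraries, as TMM-scaled CPM plus 1 on a log axis. Red points are pregnant and blue points cyclic libraries, letters name the mares, and bars are group means. F5 lay at 1412 CPM or more in every glandular library and at 123 CPM or less in every luminal one, and TFPI2 lay at 415 CPM or more in every stromal library.

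The libraries were small and uneven. Total counts ran from 136259 to 1467510, and 4072 to 11798 genes were detected. The ribosomal RNA gene RN18S took between 0.293% and 66.2% of the counts of a library. Of 4 gland marker genes, 3 were detected and FOXA2 had no count in any library. The summed level of the list was 14170 to 54009 CPM in glands, 1314 to 4660 CPM in luminal epithelium and 833 to 5790 CPM in stroma. Most of the glandular sum was the uterocalin gene P19, with a mean of 26818 CPM in glands. SCGB1A1 averaged 1027 CPM in glands and 55.4 CPM in luminal epithelium. SERPINA14 went the other way, with a mean of 9.69 CPM in glands and 462 CPM in luminal epithelium. Summed levels of 7 fibroblast markers were 4210 to 9644 CPM in stroma, 591 to 4659 CPM in luminal epithelium and 312 to 1492 CPM in glands. The cyclic glandular library of mare M stood apart with EPCAM at 14641 CPM, where no other cyclic gland exceeded 1541 CPM. In captured tissue of this kind, fewer cells of a type and less RNA per cell cannot be told apart. Separate mares within a group are separate animals, and the same letter in both states is the same animal.

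F5, the cofactor of thrombin formation, was high in every gland. Pregnant glands held 1765 CPM in mare B, 3131 CPM in mare C, 1775 CPM in mare M and 4134 CPM in mare U. Cyclic glands held 2467, 1486, 1412 and 2038 CPM in the same 4 mares. These levels rest on 758 to 5395 counts per pregnant library and 210 to 3022 per cyclic one, the best sampled values of the 3 genes. The states overlapped, with mares U and C highest in pregnancy, followed by mare B in the cyclic state.

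Luminal epithelium held far less F5. The pregnant libraries had 42.9, 40.9, 42.7 and 15.1 CPM in mares B, C, M and U, on 6 to 17 counts each. The cyclic libraries had 24.5, 79.9, 60.3 and 12.8 CPM in those mares and 123 CPM in mare J, on 8 to 85 counts. Again the states overlapped, and mare U was the lowest of both.

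In stroma the states overlapped. Only mare M gave stroma in both states, so a difference between mares cannot be told apart from one between libraries. F5 was at 606 CPM in pregnant mare M and 22.3 CPM in pregnant mare U, against 98.3 CPM in cyclic mare B and 544 CPM in cyclic mare M. Both libraries of mare M were thus high and the others low, and the group means of 314 ± 413 CPM in pregnant and 321 ± 315 CPM in cyclic stroma (SD, n = 2 each) describe no typical library.

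The gland exceeded the lumen in all 8 biopsies that gave both epithelia. The ratio of glandular to luminal F5 ran from 18.6 in cyclic mare C to 274 in pregnant mare U, with a median of 59.1. With counts summed over the 8 libraries on each side, the ratio was 56.4, and its exact 95% interval of 48.6 to 65.9 covers counting error only. In a fit with the mare as a block the difference, gland minus luminal, was 5.93 ± 0.47 on the log2 scale (estimate ± SE). It was 5.42 to 6.35 when each mare was left out in turn, 6.08 in pregnant and 5.58 in cyclic biopsies alone.

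Stromal F5 lay between the epithelia in all 4 biopsies with stroma. It was 1.48 to 14.2 times the luminal level and 0.0054 to 0.385 times the glandular level of the same biopsy. The ratio of 1.48, in pregnant mare U, rests on 6 counts in stroma and 6 in lumen. Its counting interval of 0.395 to 5.53 includes equal levels, so the order of stroma and lumen is not settled in that biopsy. The log2 differences were 2.08 ± 1.87 for stroma minus luminal and -4.43 ± 1.10 for stroma minus gland. Set in order, the neighbouring groups differed by more than their pooled SD at cyclic gland above cyclic stroma, where no library overlapped, and at pregnant stroma above cyclic luminal epithelium, where libraries did overlap. The other neighbouring groups differed by less than their spread.

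F5 was set beside P19, the lipocalin uterocalin that mare glands secrete. P19 itself was higher in gland than in luminal epithelium by 3.74 ± 0.33 on the log2 scale (adjusted p = 2.74e-26 by edgeR, adjusted over all genes tested). In pregnant mare M the stroma held 34.2% of the F5 and 38.4% of the P19 of its gland, and in pregnant mare U it held 0.540% and 2.16%. In cyclic mare B the stroma held 3.98% of the F5 and 4.47% of the P19 of its gland, and in cyclic mare M 38.5% and 14.3%. The F5 share was below the P19 share in 3 of these biopsies and above it in cyclic mare M. In the lumen the F5 share was 0.365% to 5.38% and the P19 share 2.09% to 40.3% of the gland, and the F5 share was the lower of both in 7 of 8 biopsies. What part of the F5 counts outside the glands came with captured gland RNA was not tested.

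**Figure D2:**
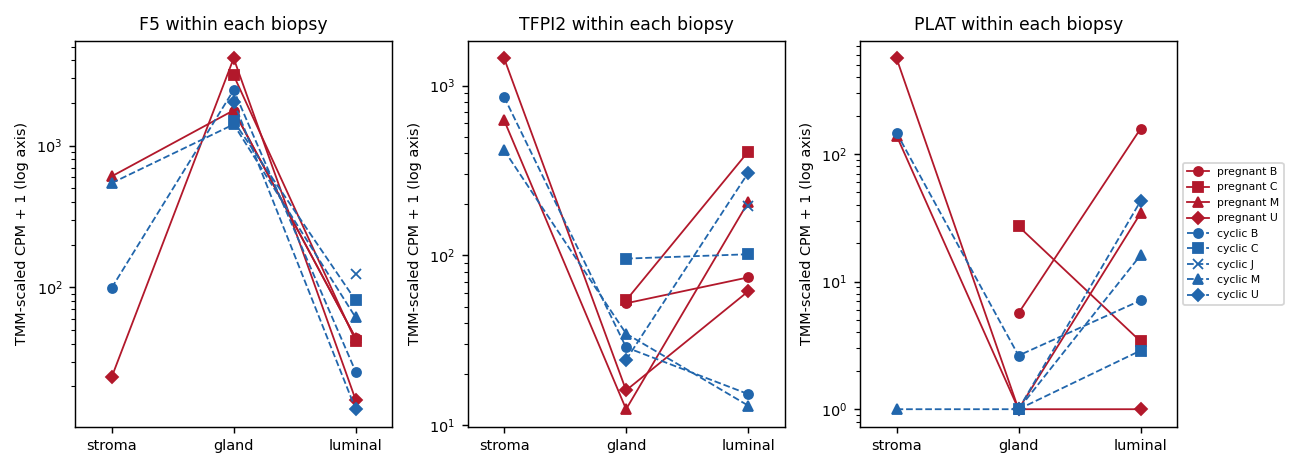
The 3 genes followed through the compartments of each biopsy, as TMM-scaled CPM plus 1 on a log axis. Each line joins stroma, gland and lumen of 1 biopsy, red and solid for pregnant, blue and dashed for cyclic. F5 peaks at the gland in all 8 biopsies with both epithelia, and TFPI2 is highest at the stroma in all 4 biopsies with stroma.

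The states differed in glandular F5 by less than the spread between mares. The ratio of pregnant to cyclic gland was 0.716 in mare B, 2.11 in mare C, 1.26 in mare M and 2.03 in mare U, so 3 of 4 mares were higher in pregnancy. The fitted difference, pregnant minus cyclic, was 0.53 ± 0.70 on the log2 scale in gland, -0.75 ± 1.57 in luminal epithelium and 0.13 ± 1.81 in stroma. Each is smaller than its SE. These 3 fits left the mares unpaired, and the luminal and glandular values with the mare as a block are given further on. The stromal value turned to -3.78 without the library of pregnant mare M. The pregnancy effect in gland minus that in lumen was 0.56 ± 1.03, where the median of all genes was 1.28.

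TFPI2, the plasmin and protease inhibitor, had its highest levels in stroma. Pregnant stroma held 624 CPM in mare M and 1446 CPM in mare U, on 320 and 389 counts. Cyclic stroma held 855 CPM in mare B and 415 CPM in mare M, on 235 and 71 counts. Every stromal library was above every epithelial one, although the highest luminal library, at 406 CPM, came close to the lowest stromal one.

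Luminal TFPI2 varied over a wide range. The pregnant libraries held 73.2 CPM in mare B, 406 CPM in mare C, 204 CPM in mare M and 60.4 CPM in mare U. The cyclic libraries held 14.3, 101, 12.1 and 305 CPM in the same mares and 194 CPM in mare J. The ratio of pregnant to cyclic lumen was 5.13 in mare B, 4.04 in mare C and 16.9 in mare M, but 0.198 in mare U. So 3 mares were higher in pregnancy and mare U was lower, and the states overlapped. The fitted difference was 0.56 ± 1.03 on the log2 scale, -0.074 without pregnant mare C and 1.82 with the mare as a block. Fibroblast marker sums in pregnant lumen were 2173, 1560, 4659 and 795 CPM in mares B, C, M and U, so the library of mare C with the most TFPI2 did not hold the most fibroblast RNA; the part of stromal RNA in luminal TFPI2 was not tested.

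Glands held little TFPI2. Pregnant glands had 51.2, 53.4, 11.4 and 15.1 CPM in mares B, C, M and U, and cyclic glands had 27.8, 94.7, 33.6 and 23.3 CPM. The log2 difference, pregnant minus cyclic, was -0.47 ± 1.46, and it was 0.27 without cyclic mare C. In stroma it was 0.71 ± 1.26, and in mare M, sampled in both states, the pregnant library was above the cyclic one. The pregnancy effect in gland minus that in lumen was -2.25 ± 2.12, about as large as its SE.

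Within biopsies TFPI2 was higher in stroma than in gland in 4 of 4, with ratios of 12.3 to 96.1, and higher than in lumen in 4 of 4, with ratios of 3.06 to 59.9. Summed counts gave a stroma to gland ratio of 37.2, with a counting interval of 28.1 to 50.4, and a stroma to lumen ratio of 15.2, with an interval of 12.0 to 19.3. The fitted log2 differences were 5.60 ± 1.19 for stroma minus gland and 4.40 ± 1.15 for stroma minus luminal. The gland was above the lumen in 2 of 8 biopsies, both cyclic (mares B and M). Gland minus luminal was -1.94 ± 0.97 over all biopsies, but -2.52 in pregnant and -0.23 in cyclic biopsies alone. In the order of groups, the step from cyclic stroma down to pregnant luminal epithelium was the one neighbouring difference beyond the pooled SD, and it had no overlap.

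PLAT, which makes plasmin, was also highest in stroma but rested on few counts elsewhere. Pregnant stroma held 138 CPM in mare M and 561 CPM in mare U, on 71 and 151 counts. Cyclic stroma held 146 CPM in mare B, on 40 counts, and 0 in mare M. The 2 states therefore overlapped in stroma, and 1 of the 4 libraries had no count, so no group mean of PLAT is typical of its libraries.

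Luminal PLAT came mostly from a few libraries. The pregnant lumen held 157 CPM in mare B, 2.40 CPM in mare C, 33.2 CPM in mare M and 0 in mare U. The cyclic lumen held 6.11, 1.88, 15.1 and 41.7 CPM in mares B, C, M and U and 1.86 CPM in mare J. The states overlapped, and mare B was highest in pregnancy whereas mare U was highest in the cyclic state.

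Glands had almost no PLAT. Pregnant glands held 4.66 CPM in mare B and 26.1 CPM in mare C, on 2 and 45 counts, and 0 in mares M and U. Among cyclic glands only the library of mare B had any, with 2 counts or 1.63 CPM. The summed counts were 47 in pregnant and 2 in cyclic glands, a ratio of 18.9 with a 95% counting interval of 4.96 to 161, and 45 of the 47 stood in the 1 library of mare C. PLAT was too low to be fitted between states in either epithelium.

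The stroma of pregnant mare U exceeded its lumen at least 74.4-fold and its gland at least 74.6-fold with each empty library set to the floor of 3 counts, and the exact 95% counting intervals begin at 59.8 and 59.9. Stromal PLAT was above luminal PLAT in 3 of 4 biopsies and below it in cyclic mare M, where the stroma had 0 counts and the lumen 5. It was 4.16 times the luminal level in pregnant mare M and 23.8 times in cyclic mare B, where the lumen had 3 counts and the interval was 7.58 to 120. Summed over the 4 biopsies, stroma had 262 counts, lumen 15 and gland 2. The stroma to lumen ratio was 20.3, with a counting interval of 12.1 to 36.9, and the stroma to gland ratio was 245, with an interval of 67.2 to 2035. Summed over the 8 biopsies with both epithelia, the gland to lumen ratio was 0.327, with an interval of 0.228 to 0.463. The gland was above the lumen in 1 of these 8, pregnant mare C, with a ratio of 10.9 on 45 counts against 1. The fitted log2 differences were 4.90 ± 2.16 for stroma minus luminal, 8.12 ± 2.20 for stroma minus gland and -4.39 ± 2.45 for gland minus luminal, and with so many empty libraries they depend on the fit's prior count. Pregnant minus cyclic stroma was 2.19 ± 2.32, and 9.71 without cyclic mare B, which left the empty cyclic library alone. The pregnancy effect in gland minus that in lumen was 0.73 ± 3.73. Pregnant stroma stood above cyclic stroma by more than the pooled SD, with overlap, and no other neighbouring groups did.

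**Figure D3:**
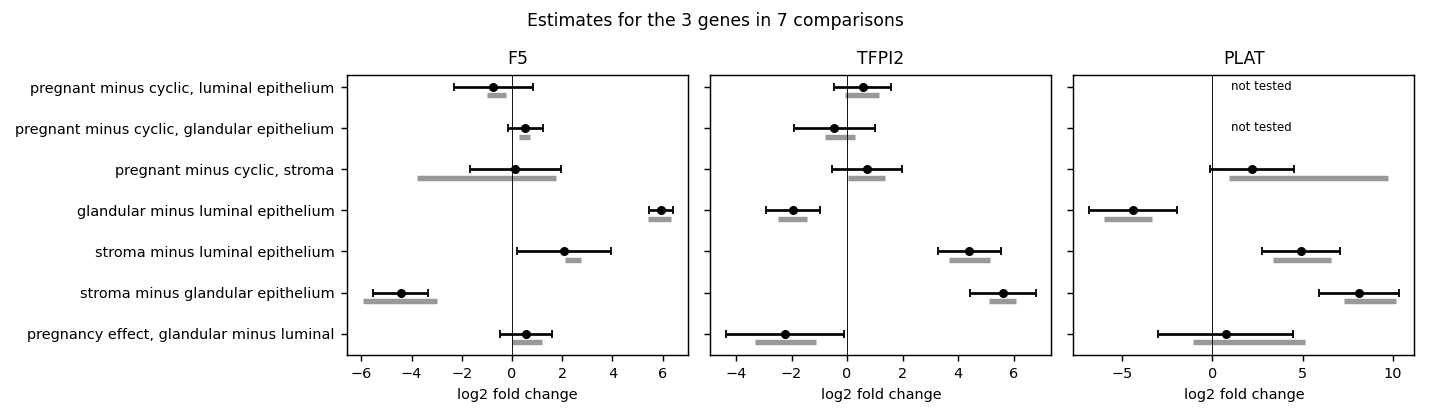
Fitted log2 fold changes of the 3 genes in 7 comparisons, the tissue or state named first minus the other. Points are estimates, black bars their SE, and grey bars the range when each mare or library was left out in turn. The compartment differences of F5 (5.93 gland minus luminal) and TFPI2 (5.60 stroma minus gland) lie well away from zero, whereas most estimates for pregnancy are smaller than their SE.

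Across all genes, edgeR's quasi-likelihood test called 0.437% of the 4344 tested genes between pregnant and cyclic luminal epithelium at an adjusted p under 0.05. It called 0.0623% of 4816 genes in gland, 0% of 2212 in stroma, where 88 genes had an unadjusted p under 0.05, and 0.0145% of 6884 for the pregnancy effect in gland minus lumen. None of the 3 genes was among the calls in these 4 comparisons, but PLAT was not tested between states in luminal or glandular epithelium. Between compartments it called 6.94% of 7174 genes for gland minus luminal, with 1 of the 3 genes (F5) among them. It called 1.74% of 3512 genes for stroma minus luminal, with TFPI2 among them, and 1.3% of 4830 genes for stroma minus gland, with all 3 among them. The genes were picked for such levels, so nothing is read from these counts. The glandular and luminal libraries of F5 did not overlap, as in 0.753% of all genes higher in gland, and the stromal libraries of TFPI2 did not overlap with the glandular ones, as in 2.38% of all genes higher in stroma, or with the luminal ones of the same biopsies, as in 2.59%.

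TFPI2 and PLAT were set beside 11 endothelial marker genes. The summed marker level was 81.8 to 1391 CPM in stroma, 5.02 to 290 CPM in gland and 1.86 to 101 CPM in lumen, and CLDN5 had no count in any library. The stroma of pregnant mare U, with the most PLAT and TFPI2, had the lowest of the stromal sums, at 81.8 CPM and with 1 marker detected. The stroma of cyclic mare M, with no PLAT and the least TFPI2 of the stromal libraries, had the highest, at 1391 CPM. The part of endothelial RNA in TFPI2 and PLAT was not tested. Summed levels of 5 smooth muscle markers were 1743 CPM in the stroma of pregnant mare U, the most of all 21 libraries, and 503 CPM in that of pregnant mare M. They were 222 CPM in the stroma of cyclic mare B and 427 CPM in that of cyclic mare M. The single markers disagreed between the states. MYH11 and TAGLN averaged 434 and 614 CPM in pregnant stroma and 32.1 and 52.1 CPM in cyclic stroma (n = 2 each). DES averaged 19.9 CPM in pregnant and 184 CPM in cyclic stroma, and ACTA2 55.9 and 56.4 CPM. In the epithelia the sums of the 5 markers were 0 to 55.3 CPM, except 200 CPM in the cyclic lumen of mare U. That library had the most TFPI2 and PLAT of the cyclic luminal libraries. CNN1 had no count in stroma or gland, and the part of smooth muscle RNA in TFPI2 and PLAT was not tested. Of 5 platelet markers PPBP, GP9 and GP1BA had no count in any library, and neither did the erythrocyte genes HBB and ALAS2. The platelet marker ITGA2B was counted in all 4 stromal libraries, at 3.72 to 216 CPM. It reached 65.2 CPM in lumen and 31.8 CPM in gland. ITGB3 was counted in lumen only, with at most 60.6 CPM, in pregnant mare B.

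**Figure D4:**
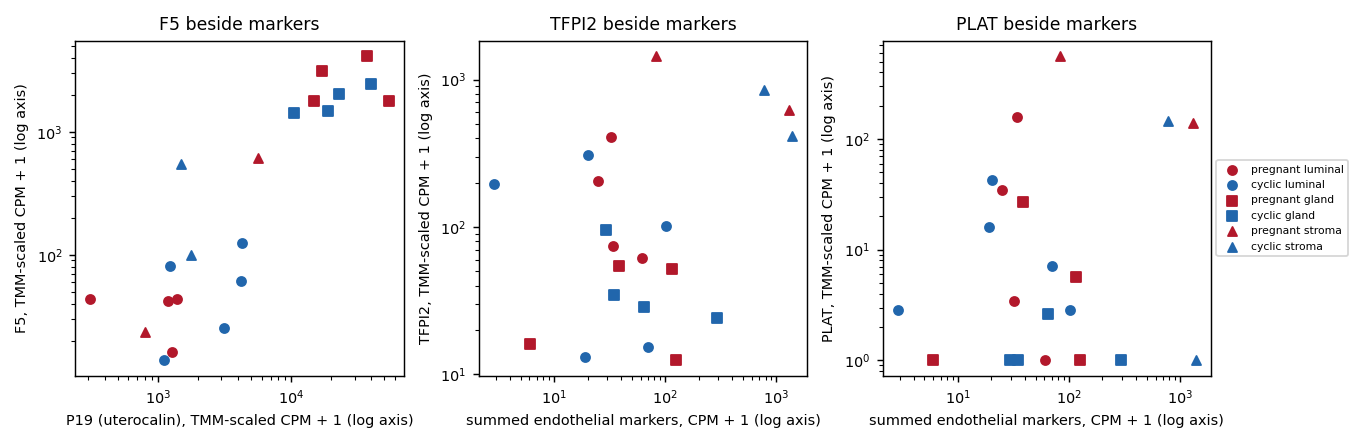
F5 against the gland transcript P19, and TFPI2 and PLAT against summed endothelial markers, for each library on log axes (CPM plus 1). Red is pregnant and blue cyclic; circles are lumen, squares gland and triangles stroma. Glands lie high on both axes of the F5 panel. The stromal library with the most TFPI2 (1446 CPM) and PLAT (561 CPM) has 81.8 CPM of endothelial markers. The part of endothelial RNA in these 2 genes was not tested.

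The transcripts most like each gene over the 21 libraries were taken from 6519 genes by Pearson correlation of log2 values. The libraries share compartments and mares, so these are descriptions. F5 was most like LOC100630794 (r = 0.914), CTTNBP2 (0.911), PLA2G2C (0.883), SPP1, which encodes osteopontin (0.881), and P19 (0.875). CTTNBP2 averaged 3608 CPM in gland, 403 CPM in stroma and 154 CPM in lumen, the same order of compartments as F5. TFPI2 was most like C1S, a complement protease (r = 0.844), TM4SF1 (0.809), LDB2 (0.808), CD34 (0.782) and IGFBP7 (0.752). PLAT was most like PLXDC2 (r = 0.784), MFAP5 (0.713), YBX3 (0.705), RASSF8 (0.699) and HDAC7 (0.698). TFPI2 and PLAT correlated with r = 0.567 over 21 libraries but with r = 0.005 over the 9 luminal and r = 0.412 over the 8 glandular libraries. F5 correlated with TFPI2 at r = -0.411 over the 21, 0.016 in lumen and -0.342 in gland. F5 correlated with PLAT at r = -0.459 over the 21, -0.113 in lumen and 0.340 in gland, so the pooled values do not describe the libraries within a compartment.

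The rest of the haemostatic system was read from 6 lists that held 52 further genes, 51 of them with an ID. Of all 55 listed genes 18 had no count in any library. These were the coagulation factors F2, F9, F10, F11, F12 and F13B, the fibrinogen chains FGB and FGG, the kallikrein gene KLKB1, the anticoagulants PROC, SERPINA5 and SERPINA10, the receptors F2RL1 and F2RL3, and the fibrinolysis inhibitors SERPINB2, SERPINF2, CPB2 and HRG. The fibrinogen chain FGA had 1 count in all. That count was in a pregnant gland. How many of the zeros come from depth or from the annotation used for counting was not tested, and the marker genes FOXA2 and CLDN5 had no count either.

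**Figure D5:**
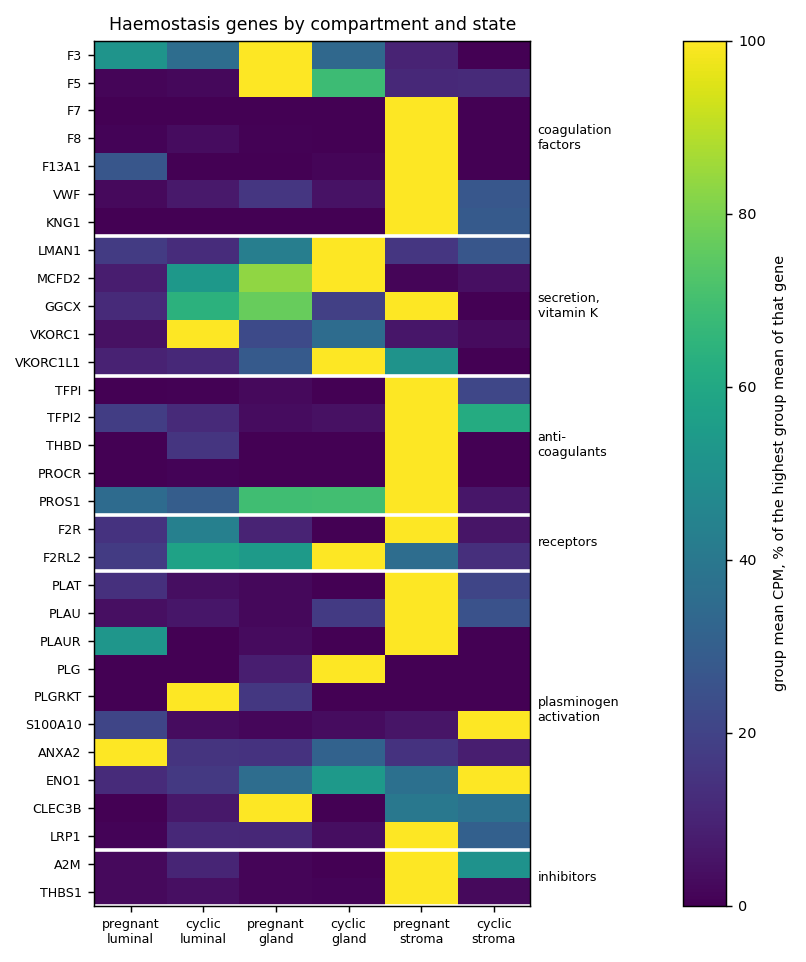
Group means of the 31 haemostasis genes with at least 10 counts in all libraries, each gene as a percentage of its own highest group mean, so colours compare groups within a gene and not genes with each other. Columns are the 6 groups. F5 is brightest in gland, ANXA2 in pregnant lumen, and many coagulation, anticoagulant and plasminogen genes in pregnant stroma, a group of 2 libraries.

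Among the other coagulation factors, none passed edgeR's test in any of the 7 comparisons, with 0 to 3 tested in each. DESeq2 called KNG1 and VWF for stroma minus luminal (adjusted p of 0.0204 and 0.0439) and KNG1 and F8 for stroma minus gland (0.0251 and 0.0304). KNG1, the precursor of bradykinin, averaged 328 ± 329 CPM in pregnant and 93.5 ± 132 CPM in cyclic stroma (SD, n = 2 each), and at most 0.97 CPM in any epithelial group. VWF, the platelet-binding protein of endothelium, averaged 161 ± 228 CPM in pregnant and 43.7 ± 61.8 CPM in cyclic stroma. KNG1 and VWF each lacked counts in at least 1 stromal library, so their means rest on the others.

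The secretion list holds LMAN1 and MCFD2, the cargo receptor that carries factors V and VIII out of the endoplasmic reticulum, and the vitamin K enzymes. All 5 genes had a positive fitted difference for gland minus luminal, and 1 passed the test. The median was 1.97, where the median of all tested genes was 0.25. GGCX, VKORC1 and VKORC1L1 had 1.47 ± 1.93, 0.84 ± 1.47 and 2.19 ± 1.89 (edgeR adjusted p of 0.870, 0.917 and 0.708). Their plain means did not all follow. VKORC1 averaged 55.4 CPM in lumen and 27.8 CPM in gland, and VKORC1L1 5.60 and 33.8 CPM. GGCX averaged 30.7 CPM in cyclic lumen and 9.02 CPM in cyclic gland, but 5.59 and 36.6 CPM in pregnancy. LMAN1 was higher in gland by 1.97 ± 0.58 on the log2 scale (adjusted p = 0.0143). It held 105, 112, 424 and 685 CPM in the pregnant glands of mares U, M, B and C, and 288 to 2198 CPM in the cyclic glands, against 9.50 to 328 CPM in pregnant and 9.05 to 284 CPM in cyclic lumen. The libraries overlapped, and the call was lost without mare C (2.21) or mare M (1.18). MCFD2 averaged 59.5 ± 56.3 CPM in pregnant and 71.3 ± 115 CPM in cyclic gland (SD, n = 4 each), against 5.68 ± 11.4 CPM in pregnant (n = 4) and 38.1 ± 79.9 CPM in cyclic lumen (n = 5), and its log2 difference was 2.18 ± 1.51 (adjusted p = 0.571).

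Of the other anticoagulants, none passed edgeR's test in any comparison, with at most 2 tested. TFPI, the main inhibitor of tissue factor and a paralogue of TFPI2, averaged 325 ± 208 CPM in pregnant and 69.1 ± 97.8 CPM in cyclic stroma (SD, n = 2 each), and no more than 8.44 CPM in any epithelial group. Its log2 difference was 6.98 ± 2.34 for stroma minus luminal (adjusted p = 0.111) and 5.20 ± 1.97 for stroma minus gland (adjusted p = 0.241). DESeq2 called both, with adjusted p of 0.00507 and 0.0107. PROS1, protein S, the cofactor of activated protein C, averaged 32.4 ± 26.4 CPM in pregnant and 32.6 ± 25.2 CPM in cyclic gland. It averaged 16.3 CPM in pregnant and 13.7 CPM in cyclic lumen, and gland minus luminal was 1.82 ± 1.64 (edgeR adjusted p = 0.731). Its highest group mean was 46.8 CPM in pregnant stroma, where 1 of the 2 libraries had no count. Cyclic stroma averaged 2.92 CPM. The thrombin receptors F2R and F2RL2 were low, at most 32.7 CPM and 13.7 CPM as group means, and neither was tested.

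In the plasminogen list, ANXA2, the annexin that with S100A10 binds plasminogen and its activator at the cell surface, rose in pregnant luminal epithelium. It held 1189, 630, 864 and 1177 CPM in the pregnant lumen of mares B, C, M and U, and 157, 251, 36.2 and 80.1 CPM in the cyclic lumen of those mares and 194 CPM in mare J. Every pregnant library was above every cyclic one, as in 1.43% of all tested genes. The log2 difference was 2.78 ± 0.70 (adjusted p = 0.0293), and 3.25 with the mare as a block. Summed levels of 4 epithelial markers were 1155 to 2580 CPM in pregnant and 443 to 1221 CPM in cyclic lumen, but the single markers disagreed. CDH1 averaged 430 CPM in pregnant and 41.7 CPM in cyclic lumen, and CLDN4 469 and 113 CPM. EPCAM averaged 739 and 554 CPM, whereas KRT18 was lower in pregnancy, at 120 and 177 CPM. The part of epithelial RNA in the ANXA2 difference was not tested. The call was lost when cyclic mare B, M or U, or pregnant mare B or U, was left out, with differences of 2.54 to 3.04 over all libraries left out. ANXA2 was 1 of 4 list genes tested in lumen, against the 0.437% of all genes called there. For gland minus luminal ANXA2 was lower by a log2 difference of -1.87 ± 0.53 (adjusted p = 0.00943), and this call was lost without mare B, C or U. It was 0.037 in cyclic biopsies alone, where the cyclic gland of mare M held 941 CPM. ENO1, an enolase that also binds plasminogen, averaged 178 ± 51.8 CPM in pregnant and 482 ± 517 CPM in cyclic stroma and passed no test.

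Over all lists, edgeR called 1 of 4 tested genes for pregnancy in lumen, 0 of 8 in gland and 0 of 12 in stroma, against 0.437%, 0.0623% and 0% of all genes. For gland minus luminal 1 of 12 was higher and 1 lower, against 6.94% of all genes called. For stroma minus luminal and stroma minus gland 0 of 8 and 0 of 10 were called, although 3 in each had an unadjusted p under 0.05, against 1.74% and 1.3% of all genes called. The pregnancy effect in gland minus lumen gave 0 of 12, with 1 under 0.05 unadjusted. In gland and stroma the pregnancy comparison had 0 and 1 genes under 0.05 unadjusted. DESeq2, which tested 27 to 32 of the list genes, called 6 genes for stroma minus luminal (LRP1, THBS1, VWF, KNG1, TFPI and PLAU) and 6 for stroma minus gland (THBS1, A2M, F8, KNG1, TFPI and PLAU), all higher in stroma. Over all genes it called 352 of 12518 and 301 of 13453 in these contrasts. It called 0 list genes for pregnancy in gland, 0 in stroma and 0 for the difference of the pregnancy effects. The median log2 difference of the tested list genes was 2.34 for stroma minus luminal and 1.56 for stroma minus gland, where the medians of all genes were -0.60 and -1.07. For pregnancy the list medians were 0.048 in lumen, -0.39 in gland and 1.77 in stroma, against -0.039, 0.074 and 0.26 for all genes.

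The fibrinolysis inhibitors A2M and THBS1 had their highest group means in pregnant stroma. In the cyclic state THBS1 averaged less in stroma than in lumen, where it was 8.44 CPM. A2M was as low as 3.64 CPM in a cyclic stromal library. A2M, the protease trap alpha-2-macroglobulin, averaged 255 ± 130 CPM in pregnant and 130 ± 179 CPM in cyclic stroma (SD, n = 2 each). Its group means in the epithelia were 0.20 to 26.8 CPM, and stroma minus luminal was 2.92 ± 3.32 (adjusted p = 0.892). THBS1, the matrix protein thrombospondin 1, averaged 212 ± 62.8 CPM in pregnant and 5.46 ± 7.72 CPM in cyclic stroma, where the cyclic value is 3 counts. The fitted THBS1 difference for pregnant minus cyclic stroma was 5.08 ± 3.37 and did not pass (adjusted p = 0.999, edgeR). THBS1 was not tested by edgeR between stroma and either epithelium. The urokinase gene PLAU, the second plasminogen activator, averaged 323 ± 142 CPM in pregnant and 81.9 ± 116 CPM in cyclic stroma, and its stroma minus luminal difference was 5.42 ± 2.16 (adjusted p = 0.261).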

How the data were processed

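The authors deposited raw read counts for 24942 gene IDs in 21 libraries, and signal tables in which 1 constant per library scales the counts. A second set of their scaled values covers 19 libraries and leaves out pregnant luminal M and cyclic glandular M. Both libraries were kept in the main results here, and the alternatives without them follow that selection. The submitters' processing notes name Trimmomatic 0.32.2 and HISAT2 2.0.3. For the counting tool, genome build, annotation and strand setting, nothing is given in the sources used here, so overlapping and antisense reads could not be told apart. Libraries were made from 1 ng of RNA without molecular identifiers, per the labels' protocols, and some received extra amplification. Symbols came from a RefSeq gene table matched by gene ID (21420 of 24942).

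Counts were tested with edgeR 4.0.16 in R 4.3.3: quasi-likelihood F-tests, two-sided, TMM scaling, filterByExpr (minimum count 10, minimum total count 15), Benjamini-Hochberg adjustment over all genes tested, threshold 0.05. States were compared within each compartment without the mare as a block, so these main fits do not use the pairing of mares. Compartments were compared on counts summed per mare, with the mare as a block. The difference of pregnancy effects used the 16 epithelial libraries with the biopsy as a block. In the stromal contrasts only biopsies with stroma entered. SE is the absolute log2 estimate divided by the square root of F. Intervals (exact, 95%) and the floor of 3 counts cover counting error only. Alternatives used DESeq2 1.42.0 and limma 3.58.1. Scripts were tested on simulated data. The same mare letter in both states marks the same animal, so the letters pair the samples; deviations of same-lettered libraries from their group means correlated at 0.019 to 0.064 in lumen and -0.036 to 0.052 in gland.

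The genes and lists were chosen with earlier results of these data known. Named list genes are the 2 of each list with the highest mean level, the genes called, and others named after their values were seen (FGA, PLAU, PLG, F8, THBD, PROCR, F13A1, GGCX, VKORC1L1, LRP1 and the genes without counts). The transcripts most like a gene are the 5 with the highest Pearson correlation of log2(CPM + 1), among genes with a mean of at least 20 CPM and counts in at least 8 libraries.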

Additional observations from a re-analysis of the deposited data

Results flagged for a closer look

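In each of the 4 epithelial groups of 4 or 5 mares, the highest and the lowest library of F5, TFPI2 and PLAT were set against the others (12 group tests), and 3 of them met the criterion for a library far from the rest. Chance alone gives about 1 in 20. F5 in the pregnant lumen of mare U was 15.1 CPM, where the next lowest library was at 40.9 CPM. TFPI2 in the cyclic gland of mare C was 94.7 CPM, where the next highest was at 33.6 CPM. PLAT in the cyclic gland of mare B was 1.63 CPM, which is 2 counts, where the other cyclic glands had none. Any single library with a count among empty ones meets the criterion, and 2 counts lie under the floor of 3, so this value says nothing about that library.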

How the results depend on the processing

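The compartment differences of F5, TFPI2 and PLAT kept their direction in every alternative that gave a value, whereas counts of calls moved. For pregnancy in lumen 19 genes were called; the counts were 12 without a filter, 122 with DESeq2, 37 without pregnant luminal M and cyclic glandular M, 0 by limma on the deposited CPM (pseudocounts 0.5, 1 and 5) and 2 to 37 leaving out each library. In gland 3 were called, against 0 with RLE size factors, 34 without a filter, 1 with DESeq2, 5 without those 2 libraries, 0 by limma and 0 to 28 leaving out libraries. In stroma the count was 2 without a filter and 0 to 2 leaving out libraries. For gland minus luminal 498 genes were called, against 1181 with DESeq2, 130 in pregnant and 120 in cyclic biopsies alone, and 230 to 411 without each mare. For stroma minus luminal 61 were called, against 29 without a filter, 352 with DESeq2, 0 in pregnant and 8 in cyclic biopsies, and 18 to 36 without each mare. For stroma minus gland 63 were called, against 20, 301, 0 and 3, and 0 to 45 without each mare; without the biopsy of pregnant mare M, an alternative chosen after seeing the data, it was 9. The difference of pregnancy effects gave 1 gene (RN18S), 0 without ribosomal RNA genes and 36 with DESeq2. The cause was not tested.

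With the mare as a replicate block, 12 genes were called in lumen and 0 in gland, and F5 was -0.043 in lumen and 0.50 in gland, TFPI2 1.82 and -0.52. Without the replicate block between compartments, stroma minus gland gave 99 genes, and the list genes called were 0 for gland minus luminal and 2 for stroma minus luminal. In stroma the states share only mare M, so no block was possible there.

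Of the list genes, the call in lumen was lost (0) without a filter and by limma, and was 0 to 1 leaving out libraries. The 2 calls for gland minus luminal became 0 without those 2 libraries, 1 in pregnant and 0 in cyclic biopsies, and 0 to 1 without each mare. DESeq2 called 6 in each stromal contrast. ANXA2 for gland minus luminal reversed to 0.037 in cyclic biopsies. LMAN1 kept its call in 5 of 12 alternatives and ANXA2 in 9 of 18 for pregnancy in lumen and 6 of 12 for gland minus luminal. TFPI2 was -0.23 for gland minus luminal in cyclic biopsies, 2.99 in pregnant and 5.47 in cyclic biopsies for stroma minus luminal, and 6.28 and 4.54 for stroma minus gland. Leaving out libraries gave -3.78 to 1.75 for F5 and 0.91 to 9.71 for PLAT, pregnant minus cyclic stroma. For the difference of pregnancy effects PLAT was 3.10 without those 2 libraries and -1.07 to 5.14 without each mare. F5 in stroma minus luminal gave no value without mare M. As CPM without ribosomal RNA genes and TMM, F5 was 49.4 in pregnant lumen and 2407 in cyclic gland, and TFPI2 was 982 in cyclic stroma.

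RLE scaling moved the median of all genes by 0.15 in lumen, -0.13 in gland, -0.24 in stroma, 0.28 for stroma minus gland and -0.29 for the difference of pregnancy effects, and leaving out ribosomal RNA genes moved stroma minus gland by 0.13. RLE called 48 genes higher and 16 lower for stroma minus gland, against 38 and 25 with TMM, and 22 and 3 against 15 and 4 for pregnancy in lumen.

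Low counts limit luminal F5 (6 to 85 counts a library) and PLAT in glands.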

Other observations

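Within stroma, 6 of the 27 further list genes counted there (22.2%) had counts in both pregnant libraries and in neither cyclic one: F8, F13A1, GGCX, VKORC1L1, THBD and PROCR. Among all 10162 genes counted in stroma the share was 8.7%, and 0.866% had the opposite pattern. The pregnant libraries detected 8116 (mare M) and 5396 genes (mare U), and the cyclic ones 4863 (mare B) and 4072 (mare M), so nothing is read from the count. Smooth muscle marker sums were 503 to 1743 CPM in pregnant and 222 to 427 CPM in cyclic stroma, although DES averaged more in cyclic stroma. The genes were named after their values were seen, and none passed edgeR's test. F8, coagulation factor VIII and a paralogue of F5, held 201 CPM in the pregnant stroma of mare M and 134 CPM in that of mare U, on 103 and 36 counts. It had no count in either cyclic stromal library, where 3 counts over the group would be 6.73 CPM. The fitted log2 difference of 8.70 ± 4.25 depends on the prior count and did not pass (adjusted p = 0.999, edgeR). The thrombin cofactor gene THBD and the protein C receptor gene PROCR were likewise counted in both pregnant stromal libraries (33 and 23 counts in sum) and in neither cyclic one, and were too low to be tested.

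PLG, plasminogen, was counted in 6 of 8 glandular libraries. The cyclic gland of mare M held 1096 CPM on 163 counts, and the others 55.2 CPM or less. The lumen had 1 count in all 9 libraries and the stroma 1 count in 4 libraries. DESeq2 gave a log2 difference of 6.19 for gland minus luminal (adjusted p = 0.000182), whereas edgeR's filter left PLG untested, and 163 of the 265 glandular counts came from that 1 library.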
